A study of Mus musculus with 16 samples.

Results

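The genes described are the variable (V) segments of the T cell receptor alpha chain, the Trav genes. The rule took every row of the count table whose gene type was TR_V_gene and whose name began with Trav, which gave 108 of 55450 genes in 21 subgroups, a subgroup being the genes that share the number after Trav. Each was measured in 16 RNA-seq libraries of tumor-infiltrating lymphocytes (TILs) from subcutaneous B16F10 melanomas, a transplantable C57BL/6 mouse melanoma line. There were 4 libraries in each of 4 groups, namely WT CD4+, Sirt2KO CD4+, WT CD8+ and Sirt2KO CD8+ TILs. WT mice were C57BL/6J, and Sirt2KO mice (Sirt2-/-, B6.129-Sirt2tm1.1Fwa/J) lacked the deacetylase SIRT2 in the germline, so tumor-infiltrating and all other host cells carried the deletion while the implanted melanoma cells did not. TILs were purified with CD3ε beads, and how the CD4+ and CD8+ cells were then separated is not given in the sources used here.

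A T cell makes its alpha chain by joining 1 Trav segment to a J segment by DNA recombination, after which the joined gene is transcribed together with the constant segment Trac. The Trav segment encodes the part of the chain that includes the first pair of loops contacting the MHC molecule and its peptide. Each T cell clone keeps its joined segment, so the spread of Trav transcripts over a library reflects which clones were sampled and how much receptor RNA each held. In the mouse the locus contains large duplications, and the letters d and n in a gene name mark copies in the duplicated stretches. Genes with dv in the name can also be joined in the delta chain of γδ T cells. In bulk libraries fewer cells using a gene and less RNA per cell cannot be told apart.

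Total counts ranged from 28000949 to 62407851 per library. In 3 libraries fewer than 15000 genes were detected, namely WT CD4 replicate 1 (12587 genes), Sirt2KO CD4 replicate 4 (8169 genes) and WT CD8 replicate 1 (14411 genes), against 17730 to 22138 in the other 13. Counts of calls are given with and without these 3 libraries. The labels fitted the markers: in edgeR's quasi-likelihood test Cd4 was lower (log2 fold change -8.23) and Cd8a (6.80) and Cd8b1 (5.02) were higher in CD8+ TILs, and 5 of 5 regulatory T cell markers were lower there, with Foxp3 at -7.36. Sirt2 itself had 32.7 to 81.1 CPM (counts per library scaled to a common total) in the WT libraries and 6.47 to 12.3 CPM in the Sirt2KO libraries, apart from 0.00 CPM in Sirt2KO CD4 replicate 4.

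The 108 genes lie on chromosome 14 between positions 52427928 and 53977678 of GRCm38 (GENCODE M21 annotation), a stretch of 1.55 Mb, and all 108 are on the plus strand. Of these, 34 are d copies, 28 are n copies and 10 are dv genes. Near-identical copies limit what the counts can say about single genes. In 31 genes no library had a count, and 30 of these 31 hold no stretch of 100 bases, the read length, that is absent from every other annotated transcript. A further 9 genes had 1 to 9 counts in all, and 68 had at least 10. Over these 68 genes a median of 84.9% of 100-base stretches were unique. For a gene without a unique stretch of 100 bases a value of 0 says nothing about its use.

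The last 150 coding bases are shown for the genes on which the results turn, each beside copies of its subgroup chosen by name. They show how few bases can separate a counted gene from another copy. Other copies of these subgroups were not compared and may be closer. All are on the plus strand of GRCm38 with GENCODE M21 positions, 5′ to 3′, and capitals mark the positions that differ within a set. Trav4-4-dv10 had the highest mean share, and it differs from Trav4d-4 at 5 positions.
Trav4-4-dv10, chr14:53684028-53684177: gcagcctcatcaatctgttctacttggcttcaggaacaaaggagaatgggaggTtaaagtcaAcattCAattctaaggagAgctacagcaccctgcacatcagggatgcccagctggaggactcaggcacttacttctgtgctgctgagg
Trav4d-4, chr14:52991240-52991389: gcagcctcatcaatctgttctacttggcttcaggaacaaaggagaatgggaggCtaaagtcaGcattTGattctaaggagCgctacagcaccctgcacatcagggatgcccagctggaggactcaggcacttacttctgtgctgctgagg

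Trav15-2-dv6-2 was higher in CD8+ TILs and differs at 2 positions from Trav15d-2-dv6d-2, which had 0 counts.
Trav15-2-dv6-2, chr14:53649845-53649994: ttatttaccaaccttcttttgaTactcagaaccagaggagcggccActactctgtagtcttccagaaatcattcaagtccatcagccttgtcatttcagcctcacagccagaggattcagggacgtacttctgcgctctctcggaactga
Trav15d-2-dv6d-2, chr14:52957251-52957400: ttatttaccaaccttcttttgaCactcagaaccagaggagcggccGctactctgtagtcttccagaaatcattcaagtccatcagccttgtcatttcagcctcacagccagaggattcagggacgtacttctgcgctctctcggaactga

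Trav13d-4 was also higher in CD8+ TILs and differs from Trav13-4-dv7 at 5 positions.
Trav13d-4, chr14:53073125-53073274: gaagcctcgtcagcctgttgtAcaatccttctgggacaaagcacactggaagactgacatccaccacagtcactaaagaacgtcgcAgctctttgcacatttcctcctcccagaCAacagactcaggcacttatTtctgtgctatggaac
Trav13-4-dv7, chr14:53757772-53757921: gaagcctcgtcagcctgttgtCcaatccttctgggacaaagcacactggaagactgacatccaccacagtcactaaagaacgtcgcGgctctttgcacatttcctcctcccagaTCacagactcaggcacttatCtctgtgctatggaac

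The 3 genes of subgroup Trav16, whose summed share did not overlap between the cell types in the 13 libraries with at least 15000 genes detected, differ at 4 positions.
Trav16d-dv11, chr14:53047672-53047821: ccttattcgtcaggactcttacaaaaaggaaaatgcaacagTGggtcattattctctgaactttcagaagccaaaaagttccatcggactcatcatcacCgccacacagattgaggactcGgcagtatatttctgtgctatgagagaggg
Trav16n, chr14:53351472-53351621: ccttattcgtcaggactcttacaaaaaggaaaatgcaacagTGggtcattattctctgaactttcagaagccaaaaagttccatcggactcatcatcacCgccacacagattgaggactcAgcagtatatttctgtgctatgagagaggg
Trav16, chr14:53743556-53743705: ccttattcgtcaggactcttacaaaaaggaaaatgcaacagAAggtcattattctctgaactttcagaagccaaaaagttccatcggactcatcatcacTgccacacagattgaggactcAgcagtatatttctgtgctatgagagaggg

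Trav11 and Trav11d, which carry the alpha chain of invariant natural killer T cells, are identical over this stretch, so no capital appears. The annotated Trav11 model runs further than that of Trav11d, so its final coding base was left out of this stretch.
Trav11, chr14:53519709-53519858: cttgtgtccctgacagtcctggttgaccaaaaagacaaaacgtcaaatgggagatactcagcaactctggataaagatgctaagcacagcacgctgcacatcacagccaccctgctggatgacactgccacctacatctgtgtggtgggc
Trav11d, chr14:52824763-52824912: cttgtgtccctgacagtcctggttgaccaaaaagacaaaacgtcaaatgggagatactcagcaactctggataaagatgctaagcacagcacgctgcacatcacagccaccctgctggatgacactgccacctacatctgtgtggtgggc

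Summed over the 108 genes, Trav transcripts made up a small and fairly even part of the libraries. The summed Trav count was 68.1, 113.6, 96.8 and 67.6 CPM in the 4 WT CD4 libraries and 78.5, 81.8, 79.7 and 59.7 CPM in the 4 Sirt2KO CD4 libraries. WT CD8 libraries had 37.1, 73.2, 73.0 and 71.6 CPM and Sirt2KO CD8 libraries 56.2, 75.0, 80.1 and 78.9 CPM. The ranges of the 4 groups overlapped. In counts these sums were 1198 to 5054 per library, and with a floor of 3 counts a gene at 0 could still have had a share of up to 0.0594% to 0.25% of a library's Trav counts. Intervals and floors cover counting error only, since reads from a joined receptor gene of 1 clone are not independent molecules.

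Usage was even in most libraries and narrow in a few. Evenness was measured as the effective number of genes, 2 to the power of the Shannon entropy in bits, which equals the number of equally used genes that would give the same entropy. It was 9.11, 33.6, 40.0 and 32.2 in WT CD4 libraries and 40.9, 42.0, 37.3 and 2.60 in Sirt2KO CD4 libraries. In WT CD8 libraries it was 11.4, 39.7, 34.0 and 42.7, and in Sirt2KO CD8 libraries 46.0, 38.3, 14.2 and 40.2. The 3 libraries with few genes detected had the lowest values together with Sirt2KO CD8 replicate 3. The medians of the groups were 32.9, 39.1, 36.8 and 39.2 in the same order, the groups overlapped, and no test was made of this score. The number of Trav genes with at least 10 counts followed the same split, with 15, 3 and 14 genes in the libraries with few genes detected and 41 to 58 in the others.

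**Figure D1:**
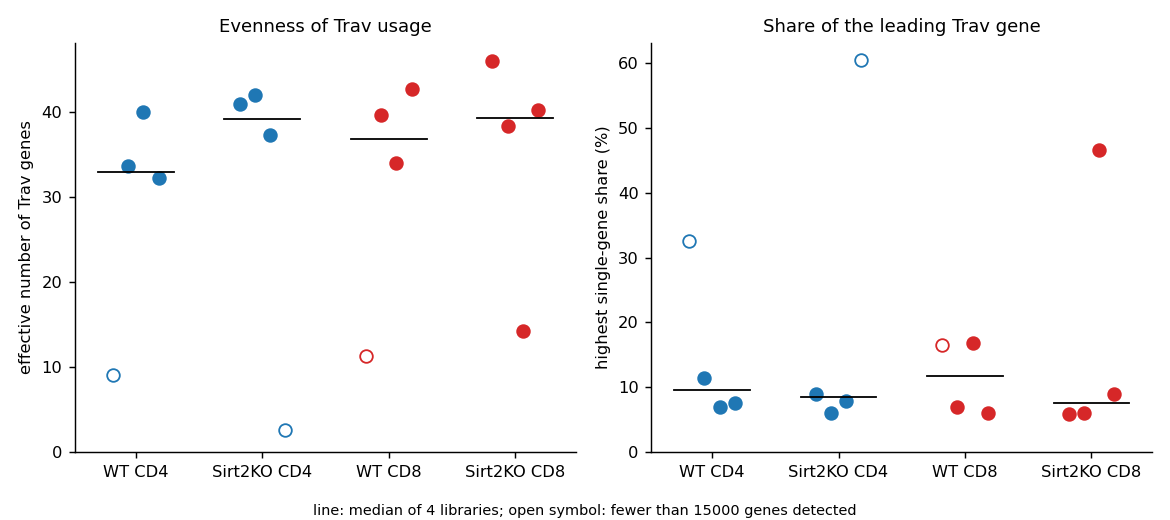
Effective number of Trav genes and share of the highest Trav gene in each library (vertical axes) by group (horizontal axis), where each point is 1 library, open symbols are the 3 libraries with fewer than 15000 genes detected and lines are medians of 4 libraries. The lowest effective numbers are 2.60 in Sirt2KO CD4 replicate 4 and 9.11 in WT CD4 replicate 1, and the highest single-gene shares are 60.4%, 46.5% and 32.6%.

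The narrow libraries were narrow in the other receptor chain as well. The effective number of beta chain V genes (Trbv) was 1.78 in Sirt2KO CD4 replicate 4, 7.47 in WT CD4 replicate 1, 10.6 in WT CD8 replicate 1 and 10.8 in Sirt2KO CD8 replicate 3, against 12.1 to 15.4 in the other 12 libraries. Trbv29 held 76.2% of the Trbv counts of Sirt2KO CD4 replicate 4. In Sirt2KO CD8 replicate 3 the highest was Trbv13-1 with 30.7%. The alpha and beta chains are encoded at separate loci, and the pairing of chains in single cells was not measured.

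No single gene led all libraries. Over the 16 libraries 10 different Trav genes had the highest share, and the 15 genes with the highest mean shares summed to 57.6%. Trav4-4-dv10 held 60.4% of Trav counts in Sirt2KO CD4 replicate 4 (95% Wilson interval 58.8 to 62%) and 32.6% in WT CD4 replicate 1 (30.5 to 34.7%). In the other 6 CD4 libraries its share was 1.78 to 5.10%, so its mean share of 8.40% rested on those libraries. In Sirt2KO CD4 replicate 4 Trav9-2 held another 20.4% and Trav13-1 19.1%, which leaves almost nothing for the remaining genes.

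Trav8d-2 led Sirt2KO CD8 replicate 3 with 46.5% (95% Wilson interval 45.0 to 48.1%), while its share in the other 15 libraries was 0 to 5.92%. Trav5-1 led WT CD8 replicates 3 (16.8%) and 4 (5.96%), and Trav13-1 led WT CD8 replicate 1 (16.4%). Trav5-4 was highest in 4 CD4 libraries, at 11.4 and 7.03% in WT replicates 2 and 3 and 8.95 and 6.01% in Sirt2KO replicates 1 and 2. Trav10 led WT CD4 replicate 4 (7.63%) and Sirt2KO CD4 replicate 3 (7.90%).

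**Figure D2:**
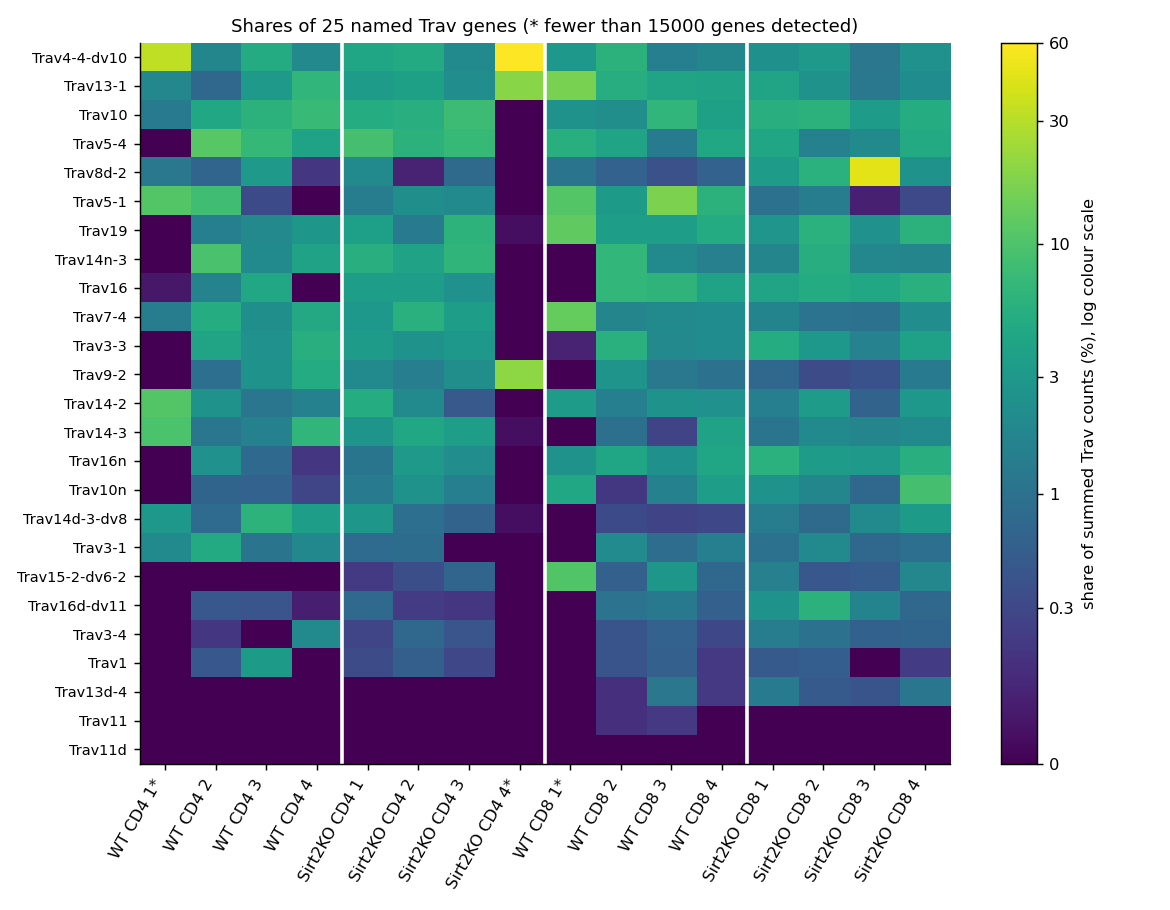
Share of the summed Trav counts (colour scale, percent) of 25 named Trav genes (rows) in each of the 16 libraries (columns), where an asterisk marks the 3 libraries with fewer than 15000 genes detected. Trav4-4-dv10 stands out at 60.4% and 32.6% in 2 CD4 libraries and Trav8d-2 at 46.5% in 1 Sirt2KO CD8 library.

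The first comparison asked which Trav genes differed between CD8+ and CD4+ TILs, cells whose receptors recognise MHC class I and class II. With all 16 libraries 2 of the 63 genes tested passed edgeR's quasi-likelihood test at an adjusted p below 0.05, and both were higher in CD8+ TILs. Over all 17270 genes tested 11.3% passed, and 5.65% were higher in CD8+ TILs, against 3.17% of the Trav genes. The median log2 fold change was -0.38 over the 63 Trav genes and 0.10 over all genes. Without WT CD4 replicate 2 the Trav median was -0.09, against 0.13 over all genes. With the summed Trav counts as library size it was -0.12, against 0.38 over all genes, so this scaling moved both medians. The size of the Trav median itself rested on single libraries and on the scaling. In normalized CPM the 8 CD8 and 8 CD4 libraries failed to overlap for 0 of the 63 genes and for 7.41% of all genes.

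Trav15-2-dv6-2, a segment that can also serve the delta chain, had 127, 17, 74 and 20 counts in WT CD8 libraries and 45, 14, 22 and 72 in Sirt2KO CD8 libraries. In CD4+ TILs it had 0 counts in all 4 WT libraries and 7, 12, 24 and 0 counts in Sirt2KO libraries. It passed the filter on low counts only with its CD8 libraries. The log2 fold change was 5.43 (SE 1.12, edgeR adjusted p = 0.00497). Since the gene entered the test through the group where it is high, this p-value is no separate support for the difference. With same-numbered CD4 and CD8 libraries of a genotype taken as blocks, neither this gene nor Trav13d-4 passed edgeR's test. The labels do not pair these numbers. When the 3 libraries poor in genes were left out, both passed with the block as well, which is no separate support either. Pooled CPM of Trav15-2-dv6-2 was at least 87.1-fold higher in CD8+ TILs of WT mice, taking a floor of 3 counts over the group. It was at least 43.1-fold higher without the 3 libraries. In Sirt2KO mice the ratio was 3.55 (2.39 without those libraries), and the Sirt2KO libraries alone gave an edgeR adjusted p of 0.79.

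Trav13d-4 had 0 counts in all 8 CD4 libraries. It had 0, 4, 30 and 5 counts in WT CD8 libraries and 38, 15, 17 and 45 in Sirt2KO CD8 libraries, so 7 of 8 CD8 libraries were above every CD4 library. The log2 fold change was 7.09 (SE 1.35, edgeR adjusted p = 0.00534). Having no CD4 counts, it passed the filter on low counts through the CD8 libraries alone. Its p-value is therefore likewise no separate support for the difference. Pooled CPM was at least 53.4-fold higher in CD8+ TILs, with a floor of 3 counts over the group. Without the libraries with few genes detected it was at least 43.7-fold higher. Trav4-4-dv10, the gene dominant in 2 CD4 libraries, did not pass (log2 fold change -2.38, SE 0.78, edgeR adjusted p = 0.0587) and was at -0.57 (edgeR adjusted p = 0.304) without the libraries with few genes detected.

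Without those 3 libraries 7 of 63 Trav genes (11.1%) passed edgeR's test, 3 higher and 4 lower in CD8+ TILs. The background also rose, to 37.7% of 17993 genes, with 19.3% higher and 18.3% lower. Trav15-2-dv6-2 (log2 fold change 4.83) and Trav13d-4 (7.30) passed again, joined by Trav16d-dv11 (1.84, SE 0.63, edgeR adjusted p = 0.0274). The limit stated above for Trav15-2-dv6-2 and Trav13d-4 holds here as well. When library size was set to the summed Trav counts, 4 genes were higher and 3 lower (11.1% called, against 35.4% of all genes). These settings are alternatives, and the split between higher and lower Trav genes depended on the scaling.

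The 4 genes lower in CD8+ TILs without those libraries were Trav7-4, Trav5-4, Trav14d-3-dv8 and Trav9-2. Trav7-4 had a share of 2.35 to 5.80% in the 6 CD4 libraries and 1.0 to 2.22% in the 7 CD8 libraries (log2 fold change -1.52, SE 0.34, edgeR adjusted p = 0.00146). It was also the 1 gene of 59 (1.69%) whose CPM did not overlap between the cell types, against 21.0% of all genes with at least 10 counts in 6 or more of the 13 libraries. WT CD8 replicate 1, left out there, had 13.1% Trav7-4. Trav5-4 was at -1.48 (SE 0.38, edgeR adjusted p = 0.00456) and Trav9-2 at -1.31 (SE 0.46, edgeR adjusted p = 0.0304).

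Trav14d-3-dv8 was at -1.80 (SE 0.52, edgeR adjusted p = 0.00961) without the 3 libraries, and the genotypes taken alone gave opposite signs. Its share was 0.831 to 6.11% in the 3 remaining WT CD4 libraries and 0.269 to 0.326% in the 3 remaining WT CD8 libraries. In Sirt2KO libraries it was 0.675 to 2.89% in CD4+ TILs and 0.812 to 3.14% in CD8+ TILs. The Sirt2KO libraries alone gave a log2 fold change of 0.21, of the opposite sign.

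Near-identical copies were also summed by subgroup, which adds up reads split between copies and does not bring back reads lost in counting. With all 16 libraries 0 of 18 subgroups tested passed edgeR's test, against 11.4% of all rows of that table. An unadjusted p below 0.05 was found for 1 subgroup (5.56%), against 22.6% of all rows. It was Trav4 (log2 fold change -1.70, SE 0.63, edgeR adjusted p = 0.0985). DESeq2 called 1 (18.0% of all rows) and limma-voom 7 (43.8% of all rows). When those 3 libraries were left out, 3 of 18 subgroups (16.7%) passed edgeR's test, all lower in CD8+ TILs, against 37.8% of all rows called and 18.4% lower. Trav14, with 9 genes, had a mean share of 15.1 ± 1.99% (SD, n = 6) in CD4 and 9.79 ± 2.01% (SD, n = 7) in CD8 libraries (log2 fold change -0.87, SE 0.18, edgeR adjusted p = 0.0009). Trav9 had 6.53 ± 1.23% and 3.73 ± 1.66% (-1.07, SE 0.26, edgeR adjusted p = 0.0031).

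Trav7 had 13.6 ± 2.04% in CD4 and 10.3 ± 2.31% in CD8 libraries (log2 fold change -0.64, SE 0.18, edgeR adjusted p = 0.0069). With the summed Trav counts as library size, it no longer passed (-0.38, edgeR adjusted p = 0.141), while Trav14 (-0.62, edgeR adjusted p = 0.0124) and Trav9 (-0.80, edgeR adjusted p = 0.0341) did.

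The shares of subgroup Trav16 did not overlap between the cell types once the 3 libraries with few genes detected were set aside, and did overlap with them. Its share was 4.61 ± 2.29% (SD, n = 6) in CD4 libraries, from 0.247 to 6.88%, and 11.3 ± 2.04% (SD, n = 7) in CD8 libraries, from 8.87 to 14.5%, a ratio of 2.46. In the 3 libraries set aside it was 2.59% in WT CD8 replicate 1, inside the CD4 range, 0.0525% in WT CD4 replicate 1 and 0% in Sirt2KO CD4 replicate 4. As CPM of total counts it did not pass (log2 fold change 1.01, SE 0.46, edgeR adjusted p = 0.105), and with the summed Trav counts as library size it did (1.31, SE 0.42, edgeR adjusted p = 0.0221). Each of its 3 genes taken alone overlapped between the cell types. The gene Trav16 had 3.94 to 6.87% in the 7 CD8 and 0 to 4.55% in the 6 CD4 libraries. Trav16n had 2.39 to 5.83% and 0.177 to 3.13%, and Trav16d-dv11 0.612 to 6.06% and 0.0706 to 0.793%. In CPM of total counts 3 of 18 subgroups did not overlap between the cell types (Trav14, Trav16 and Trav9), again against 21.0% of all genes.

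**Figure D3:**
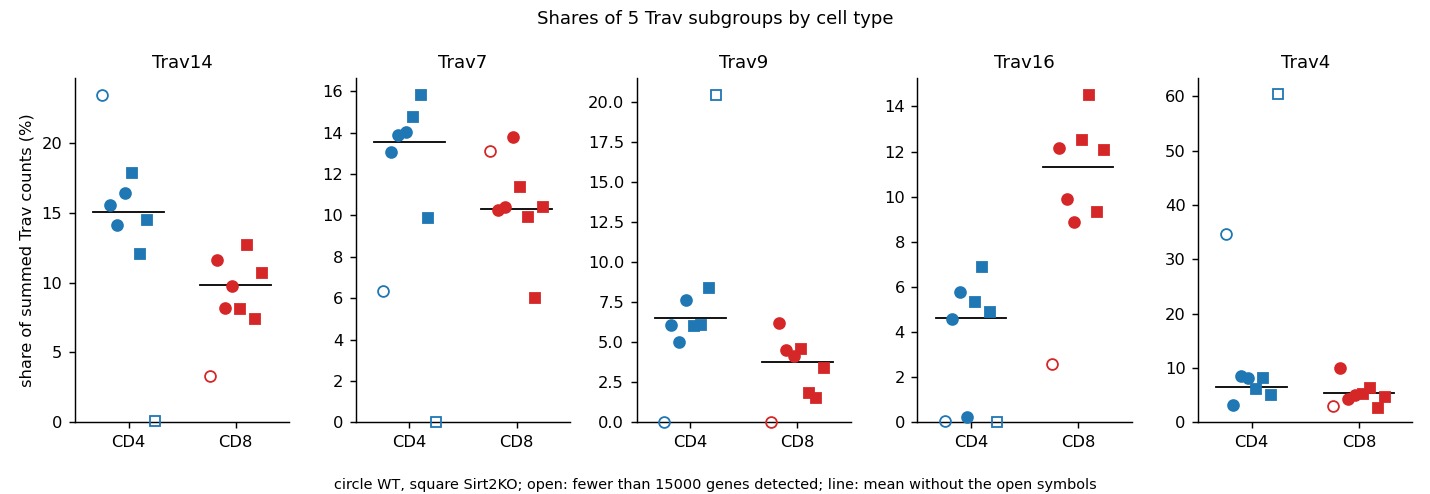
Share of the summed Trav counts (vertical axes, percent) of 5 Trav subgroups in CD4 and CD8 libraries, where circles are WT, squares Sirt2KO, open symbols the 3 libraries with fewer than 15000 genes detected and lines the means without them. For Trav16 the 7 filled CD8 symbols lie at 8.87 to 14.5% and the 6 filled CD4 symbols at 0.247 to 6.88%.

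The whole pattern of subgroups was shared more than it differed. In the 13 libraries the Morisita-Horn similarity of usage, which is 1 for identical shares, had a median of 0.931 within CD4, 0.880 within CD8 and 0.869 between the cell types for subgroups. For single genes the medians were 0.764, 0.702 and 0.674. Pairs of libraries share members, so these values are a description.

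**Figure D4:**
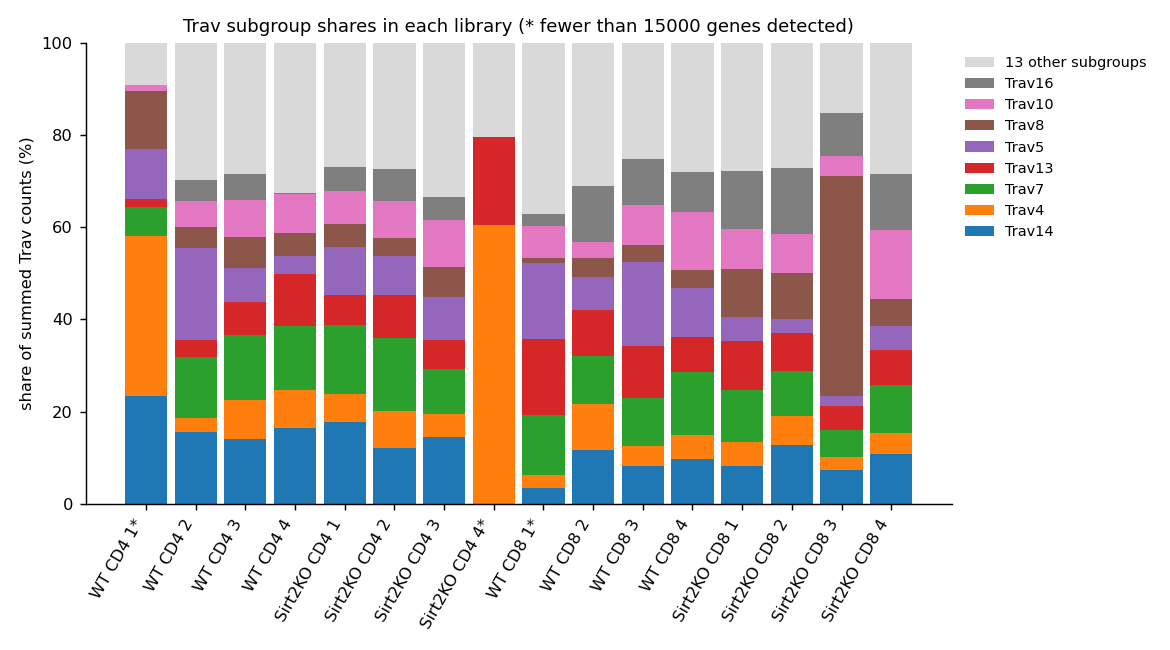
Share of the summed Trav counts (vertical axis, percent) of the 8 subgroups with the highest mean share and of 13 other subgroups together, stacked for each of the 16 libraries (horizontal axis). Trav4 fills 60.4% of Sirt2KO CD4 replicate 4 and 34.6% of WT CD4 replicate 1, and Trav8 fills 47.9% of Sirt2KO CD8 replicate 3.

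The comparison of genotypes asked whether loss of Sirt2 went with another Trav usage. In CD4+ TILs edgeR called 0 of 49 Trav genes tested, 0 had an unadjusted p below 0.05, and DESeq2 called 0. Over all 15070 genes edgeR called 0.0%, with 190 (1.26%) at an unadjusted p below 0.05, and DESeq2 called 0.0464%. Even Sirt2, at 40.2 to 81.1 CPM in WT and 0.00 to 12.3 CPM in Sirt2KO CD4 libraries, was not called by edgeR. The lack of calls in this fit therefore says little about Trav genes. By limma-voom 11 of the 49 Trav genes (22.4%) and 7.31% of all genes had an unadjusted p below 0.05, and 0 Trav genes were called. Without the 2 CD4 libraries with few genes detected edgeR called 0 of 58 Trav genes and 0.0374% of 16034 genes, and 2 Trav genes (3.45%) had an unadjusted p below 0.05, against 4.35% of all genes. The median log2 fold change of Sirt2KO against WT was -0.34 over the Trav genes and -0.11 over all genes. The Trav median had no stable sign, at 0.07 without Sirt2KO CD4 replicate 4, 0.02 without WT CD4 replicate 2, -0.02 without WT CD4 replicate 3 and -0.19 without both libraries poor in genes. Trav3-1 was the 1 gene of 49 (2.04%) whose libraries did not overlap in normalized CPM, against 3.09% of all genes. Its shares were 1.99, 4.93, 1.06 and 1.91% in WT and 0.849, 0.871, 0 and 0% in Sirt2KO libraries (log2 fold change -2.73, SE 1.82, edgeR adjusted p = 1.0).

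In CD8+ TILs edgeR called 0 of 52 Trav genes, 4 (7.69%) had an unadjusted p below 0.05 against 3.78% of all genes, and 0.00654% of 15302 genes were called, which was Sirt2 itself (log2 fold change -2.22, edgeR adjusted p = 0.00663). The median log2 fold change was 0.07 over the Trav genes and 0.01 over all genes, and the Trav median ranged from -0.07 without WT CD8 replicate 1 to 0.39 without WT CD8 replicate 2. Without WT CD8 replicate 1, the library with few genes detected, edgeR called 0 of 57 Trav genes and 0.0439% of 15943 genes, and 7 Trav genes (12.3%) had an unadjusted p below 0.05, against 4.18% of all genes. In normalized CPM the libraries of the genotypes did not overlap for 5 of 52 Trav genes (9.62%), against 2.96% of all genes. The Sirt2KO values lay below every WT value for Trav5-1 and Trav13-1 and above for Trav8d-2, Trav3-4 and Trav14d-3-dv8, and none of the 5 passed edgeR's test. As shares of the Trav counts, Trav13-1 overlapped, with 4.07% in Sirt2KO replicate 1 and 3.94% in WT replicate 4. Trav3-4 overlapped too, with 0.627% in Sirt2KO replicate 3 and 0.654% in WT replicate 3.

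Trav8d-2 had shares of 1.09, 0.651, 0.385 and 0.650% in WT CD8 libraries and 3.22, 5.92, 46.5 and 2.53% in Sirt2KO CD8 libraries. Its log2 fold change was 4.81 (SE 1.01, edgeR adjusted p = 0.679), and 2.76 (edgeR adjusted p = 0.468) without Sirt2KO CD8 replicate 3. The other 3 Sirt2KO libraries were thus also above the 4 WT libraries, at a smaller distance. Subgroup Trav8 was at 2.65 (edgeR adjusted p = 0.985).

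Trav5-1 had shares of 10.8, 3.15, 16.8 and 5.96% in WT CD8 libraries and 1.02, 1.39, 0.0752 and 0.306% in Sirt2KO CD8 libraries. Its log2 fold change was -3.55 (SE 0.81, edgeR adjusted p = 0.921), and DESeq2 did call it, with an adjusted p of 0.00151, among 0.183% of all genes. In CD4+ TILs its shares of 10.8, 8.47, 0.322 and 0% in WT and 1.36, 2.31, 2.06 and 0% in Sirt2KO libraries overlapped. Subgroup Trav5 was at -1.50 in CD8+ TILs (edgeR adjusted p = 0.985).

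Among the other genes without overlap in normalized CPM, Trav14d-3-dv8 was at 3.06 (SE 0.98) and Trav13-1 at -1.17 (SE 0.44), both with an edgeR adjusted p of 0.986. The spread between replicates was wide for Trav genes: edgeR's biological coefficient of variation had a median of 0.914 over the Trav genes in CD8+ TILs, against 0.845 over other genes of the same level. In CD4+ TILs it was 1.63 against 1.61.

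Whether the Sirt2KO effect differed between CD4+ and CD8+ TILs was tested as an interaction. Among 63 Trav genes edgeR called 0, as it did among all 17270 genes (0.0%), and 3 Trav genes (4.76%) had an unadjusted p below 0.05, against 1.98% of all genes. These were Trav15-2-dv6-2 (-7.51 on the log2 scale), Trav8d-2 (5.78) and Trav14d-3-dv8 (4.70), each with an edgeR adjusted p of 1.0. Without the 3 libraries with few genes detected edgeR again called 0 of 63 Trav genes.

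Chains of unconventional T cells were rare or could not be counted. Trav11, the alpha segment of invariant natural killer T cells, had 9 counts in all, 4 in WT CD8 replicate 2 and 5 in WT CD8 replicate 3, and only 1 of its 244 stretches of 100 bases is unique. Trav11d had 0 counts in every library, so the use of this chain was not measured. Zbtb16, the transcription factor of innate-like T cells, was lower in CD8+ TILs (log2 fold change -3.43, edgeR adjusted p = 0.0237). It was the 1 of 3 genes of the invariant T cell list that passed, and Klrb1c (0.87, edgeR adjusted p = 0.665) and Klrb1b (-0.66, edgeR adjusted p = 0.836) did not.

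Trav1, the alpha segment of mucosal-associated invariant T cells, had 0, 24, 127 and 0 counts in WT CD4 and 12, 20, 10 and 0 in Sirt2KO CD4 libraries. In CD8+ TILs it had 0, 12, 16 and 5 counts in WT and 15, 17, 0 and 8 in Sirt2KO libraries. The groups overlapped, and the highest value was that of WT CD4 replicate 3, a share of 3.14%.

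The 10 dv genes held 9.99 to 14.8% of Trav counts in 6 CD4 libraries and 7.91 to 14.5% in the 8 CD8 libraries. The exceptions were WT CD4 replicate 1 (35.5%) and Sirt2KO CD4 replicate 4 (60.5%), where Trav4-4-dv10 was dominant. Trdc, the constant segment of the delta chain, had 1.36, 9.53, 7.52 and 2.08 CPM in WT CD4 and 23.3, 25.8, 38.5 and 43.9 CPM in Sirt2KO CD4 libraries, without overlap (log2 fold change 2.74, SE 0.81, edgeR adjusted p = 1.0). It had 6.96 to 13.2 CPM in WT CD8 and 6.24 to 22.4 CPM in Sirt2KO CD8 libraries. Of 5 γδ T cell markers 1 passed between the cell types, Tcrg-C2, higher in CD8+ TILs (2.91, edgeR adjusted p = 0.000594). Between the genotypes 0 of the 5 passed in CD4+ TILs, and Tcrg-C1, Tcrg-C2, Tcrg-C4 and Sox13 overlapped there. The missing overlap of Trdc stands beside 3.09% of all genes without overlap in normalized CPM. The part of γδ T cells in the dv shares was not tested.

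Along the locus the counts were unevenly spread. The 108 genes were split by order into 4 blocks of 27. In the 13 libraries the last block, nearest the J segments, held 42.9 to 62.8% of Trav counts in CD4 (median 51.5%) and 28.6 to 54.7% in CD8 libraries (median 49.1%). The second block held 3.21 to 13.8% in CD4 (median 5.05%) and 4.12 to 53.0% in CD8 libraries (median 14.4%), where the highest value was that of Sirt2KO CD8 replicate 3 with its dominant Trav8d-2. The blocks had 8, 15, 8 and 0 genes with no count. Reads of copies that cannot be told apart may be lost in counting. Lost reads and low use were not separated, so the order of the blocks carries that limit.

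**Figure D5:**
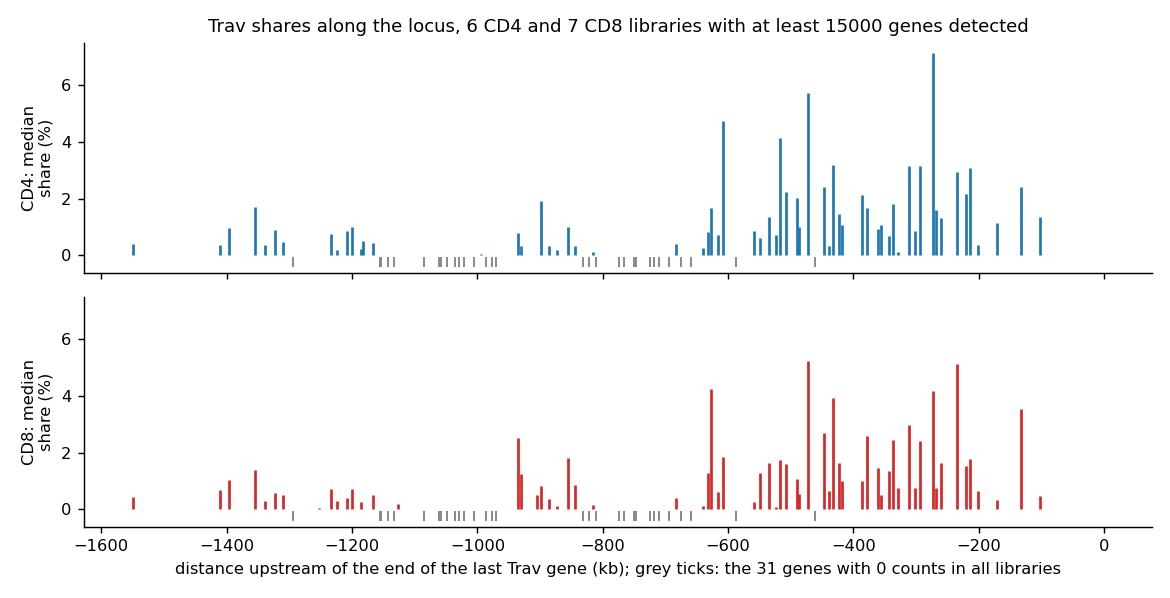
Median share of each Trav gene (vertical axes, percent) against distance upstream of the end of the last Trav gene (horizontal axis, kb) in the 6 CD4 and 7 CD8 libraries with at least 15000 genes detected, where grey ticks mark the 31 genes with 0 counts in all libraries. The ticks fall in the first 3 blocks of the locus, and the last block has none.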

How the data were processed

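The authors deposited 1 table of raw counts per gene for 16 libraries (SMARTer Stranded Total RNA-seq Pico v2). The submitters' processing notes name STAR, HTSeq and mm10. Versions and the strand setting of the counting are not given in the sources used here. All 55450 gene identifiers were those of GENCODE M21. Without a known strand setting, reads of Trav13d-3 and Trav13n-3 cannot be told apart from antisense genes that overlap them. Reads that match near-identical copies equally well can be lost in counting, which lowers those genes.

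From the deposited counts, shares of the summed Trav counts were computed per library. Differences were tested with edgeR 4.0.16 (R 4.3.3; TMM, filterByExpr, robust quasi-likelihood test, two-sided) on the whole table with Benjamini-Hochberg adjustment over all genes tested and a threshold of 0.05. CD8 against CD4 and the interaction used all 16 libraries with 4 group means, and genotypes were compared over 8 libraries within each cell type. The method was tested on simulated data with a smaller spread between replicates than the Trav genes had. Those runs do not show how well it finds differences in Trav genes. Of the 108 genes, 45 were too low to test between cell types, 59 between genotypes in CD4 and 56 in CD8. DESeq2 1.42.0, limma 3.58.1 (voom), other filters, scalings and left-out libraries were alternatives. Leaving out the 3 libraries together with another change, and leaving out Sirt2KO CD8 replicate 3 as the dominated library, were chosen after seeing the data. Shares, evenness, similarity and position are descriptions.

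Named genes were the 15 with the highest mean share, the highest of each library, those called, those whose groups did not overlap, and Trav11, Trav11d and Trav1. Members, lists and tests were chosen with earlier results of these data known. Labels do not tie same-numbered CD4 and CD8 libraries to 1 animal. The labels give 4 samples per group of mice without saying that each is 1 animal, so p-values measure the spread between these samples.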

Additional observations from a re-analysis of the deposited data

Results flagged for a closer look

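In each group of 4 libraries the highest or lowest value was compared with the other 3. It stood apart in 20 of 104 groups of values (19.2%). For normally distributed values chance marks about 1 in 20. These values are not independent, since shares of 1 library sum to a whole. Every gene and subgroup marked here was also among those with the highest mean share over the same libraries. A single high library raises that mean, so 19.2% cannot be read against 1 in 20. Sirt2KO CD4 replicate 4 gave 7 of the 20 marked groups. Its summed Trav count was 59.7 CPM (others 78.5 to 81.8), its effective number of genes 2.60 (37.3 to 42.0) and its highest share 60.4% (6.01 to 8.95%), which was Trav4-4-dv10 and likewise subgroup Trav4. Trav9-2 was at 20.4% and Trav13-1 at 19.1% there.

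WT CD4 replicate 1 gave 5, with Trav4-4-dv10 as its highest share at 32.6% (highest shares of the others 7.03 to 11.4%), subgroup Trav4 at 34.6%, subgroup Trav7 low at 6.35% (13.1 to 14.1%) and Trav14-2 at 10.8%. WT CD8 replicate 1 gave 4, namely a summed Trav count of 37.1 CPM (71.6 to 73.2), Trav13-1 at 16.4%, Trav7-4 at 13.1% and subgroup Trav8 low at 1.09%. These 3 libraries are those with fewer than 15000 genes detected, and the part of that in their shares was not tested.

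Sirt2KO CD8 replicate 3 gave 3, all from Trav8d-2, which was its highest share at 46.5% and raised subgroup Trav8 to 47.9%. This library was not among those with few genes detected. In Sirt2KO CD8 replicate 2, Trav14n-3 was at 5.25%, against 1.76 to 1.83% in the other 3.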

How the results depend on the processing

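The number of Trav genes called between CD8 and CD4, 2 with all libraries, was 15 with limma-voom (23.8%, against 43.7% of all genes), 1 of 2 tested with at least 10 counts in every library (Trav4-4-dv10, lower in CD8), 1 in WT libraries and 1 in Sirt2KO libraries alone, and 2 to 3 when any single library was left out. Without the 3 libraries with few genes detected it was 7, also 7 with the summed Trav counts as library size, 13 with DESeq2 (20.6%, against 40.4% of all genes), 5 in WT and 4 in Sirt2KO libraries. Of the subgroups 0 were called with all libraries, against 11.4% of all rows. DESeq2 called 1 (5.56%, against 18.0%) and limma-voom 7 (38.9%, against 43.8%). With at least 10 counts in every library it was 1 of 2 tested, against 35.9%. At an adjusted p below 0.1 it was 1 (5.56%, against 15.3%). Leaving out any single library gave 0 to 1. The 1 was without Sirt2KO CD4 replicate 4 (5.56%, against 25.1%). Without the 3 libraries it was 3, 3 with the summed Trav counts, 8 with DESeq2, 1 in WT and 3 in Sirt2KO libraries. DESeq2 called 1 Trav gene between genotypes in CD8 (1.92%, against 0.183% of all genes), where edgeR called 0. Trav14d-3-dv8 turned from -1.70 to 0.63 in Sirt2KO libraries alone and to 0.21 in those without the 3 libraries. The cause was not tested. With the replicate block 0 Trav genes and 0 subgroups were called between cell types, against 8.36% of all genes and 8.38% of all rows. The edgeR adjusted p was 0.0874 for Trav15-2-dv6-2 and 0.121 for Trav13d-4. The Trav median turned from -0.38 to 0.28, and no Trav call changed in the genotype comparisons or the interaction. Without the 3 libraries the block, added after seeing the data, gave 11 genes (17.5%, against 37.6% of all genes). It gave 5 subgroups (27.8%, against 37.7% of all rows). Among them were the 7 genes and 3 subgroups called without it. The labels do not pair the numbers; deviations of same-numbered CD4 and CD8 libraries correlated at -0.014 to 0.133, and 11 of 16 libraries correlated best with their own number, a hint from the data and not the design. Subgroup sums gave median effective numbers of 11.9 (WT CD4), 13 (Sirt2KO CD4), 13.1 (WT CD8) and 13.3 (Sirt2KO CD8). Scaling to the summed Trav counts moved the median of all genes from 0.10 to 0.38. Low Trav counts and copies limit single genes.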
